A study of Homo sapiens with 17 samples.

Results

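The genes described here are those encoded by the mitochondrial genome itself. They were taken as all rows of the count table whose symbol starts with MT-. This gave 13 genes of the 34496 rows, and all 13 code for proteins of the respiratory chain. The same 13 are all the protein genes that RefSeq lists on the human mitochondrial chromosome, beside 2 ribosomal RNA and 22 transfer RNA genes, which have no row under this rule and were not analysed here. All 13 passed the low-count filter.

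The study sequenced RNA from cell lines of human head and neck cancers in 10 libraries. Cal27, SKN3, BICR78 and a Cal27 derivative labelled as an NSD1 knockout (Cal27_NSD1KO) gave 1 untreated library each. Cal27 with DMSO, Cal27_NSD1KO with DMSO and Cal27_NSD1KO with EPZ-6438 gave 2 libraries each. NSD1 is a methyltransferase of lysine 36 on histone H3, EPZ-6438 (tazemetostat) inhibits EZH2, the methyltransferase of lysine 27 on the same histone, and DMSO is the solvent. The DMSO pair of groups addresses the effect of the labelled knockout, and the treated group that of EZH2 inhibition on top of it. The labels name a single knockout derivative without saying whether it is 1 clone, give no dose or duration, and describe no library of parental Cal27 with EPZ-6438. A change with the inhibitor is therefore known only in the labelled knockout.

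The libraries given DMSO or EPZ-6438 held 11.75 to 15.51 times 1e6 counts each, and those left untreated 17.59 to 21.74 times 1e6. NSD1 mRNA, the targeted gene, was at 110 and 110.5 counts per 1e6 counts of the library (CPM) in Cal27 with DMSO. In the labelled knockout it was at 165.4 and 163.6 CPM given DMSO and at 161.8 and 151.1 given EPZ-6438. In the untreated libraries NSD1 was at 144.3 CPM in Cal27, 211.3 in the labelled knockout, 84.27 in SKN3 and 0.4617 (9 counts) in BICR78. BICR78 was also the library with the largest mitochondrial share, and a link between that share and NSD1 was not tested. With DMSO the NSD1 level in the labelled knockout was thus above that in Cal27 (log2 change 0.53 ± 0.04 SE, edgeR quasi-likelihood test with Benjamini-Hochberg adjustment, adjusted p = 4.18e-08). The NSD1 counts therefore give no check of the deletion, and all directions given here are those of the labels. The summed level of 6 squamous epithelial markers was between 2120 and 20311 CPM in all 10 libraries. It was 7250 and 7173 CPM in Cal27 with DMSO, 3375 and 3496 in the labelled knockout given DMSO, and 2120 and 2134 under EPZ-6438. The 6 did not move alike. In the labelled knockout with DMSO 4 fell, EPCAM rose (log2 change 0.11) and CDH1 was not called (0.01). Of all tested genes, 19.5% were called lower and 16.4% higher there. With EPZ-6438, 5 fell and KRT17 rose (0.20), beside 23.9% and 25.6% of all tested genes. Over the same groups 6 immune markers summed to 79.84 and 79.43, then 177.3 and 181.3, then 236 and 230.7 CPM, with NKG7 at 0 in all 6 libraries and CD3E at 0 in 5. Fibroblast markers (7) summed to 7.498 to 25.34 CPM and endothelial markers (4) to 16.61 to 29.02 CPM in these 6 libraries. The part of these shifts in the mitochondrial results was not tested.

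Human mitochondria keep a small circular genome whose strands, named heavy and light, are each copied into a long precursor RNA by the polymerase POLRMT with the help of TFAM and TFB2M. Transfer RNAs punctuate the precursor, and their excision frees the mRNAs, whose levels then depend on polyadenylation, on the stabilising proteins LRPPRC and SLIRP, and on decay by PNPT1 and SUPV3L1. The mRNAs code for core subunits of complex I (NADH dehydrogenase, the MT-ND genes), complex III (cytochrome b, MT-CYB), complex IV (cytochrome c oxidase, the MT-CO genes) and complex V (ATP synthase, the MT-ATP genes). All other subunits, and every subunit of complex II, are made from nuclear genes.

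In the RefSeq annotation of GRCh38.p14 the genes lie on chromosome MT without introns, in an order that starts with MT-ND1 at bases 3307 to 4262 and MT-ND2 at 4470 to 5511. The complex IV and V genes follow as a block: MT-CO1 at 5904 to 7445, MT-CO2 at 7586 to 8269, MT-ATP8 at 8366 to 8572, MT-ATP6 at 8527 to 9207 and MT-CO3 at 9207 to 9990. MT-ND3 lies at 10059 to 10404, MT-ND4L at 10470 to 10766, MT-ND4 at 10760 to 12137 and MT-ND5 at 12337 to 14148. MT-ND6 lies at 14149 to 14673, and MT-CYB at 14747 to 15887 closes the series. MT-ND6 is the only one of the 13 on the light strand, an assignment that was taken from a gene list and not from this annotation. MT-ATP8 and MT-ATP6 share 46 bases and are carried on 1 mRNA, as are MT-ND4L and MT-ND4, which share 7 bases. How reads in these overlaps, or reads of the opposite strand over MT-ND6, were counted is not given in the sources used here, so the values of these genes cannot be fully told apart from those of their neighbours.

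The 13 genes took between 5.442% and 12.14% of all counts, and 6 or 7 of them were among the 10 most abundant rows of every library. In Cal27 with DMSO the level per kilobase was highest for MT-CO2, the copper-binding subunit that receives electrons from cytochrome c, at 15584 ± 305 CPM per kilobase (SD, n = 2), followed by MT-CO3 at 12642 ± 164. MT-ND4, a proton-pumping membrane subunit of complex I, stood at 9533 ± 143, MT-CO1, the catalytic subunit of complex IV, at 9146 ± 79.9, and MT-ATP6, part of the proton channel of ATP synthase, at 8999 ± 273. MT-ND4L had 5339 ± 142, MT-ATP8 4896 ± 277, MT-ND2 4819 ± 152, MT-CYB 4492 ± 91.1 and MT-ND3 3925 ± 198 CPM per kilobase. Of these neighbours, MT-CO1 and MT-ATP6, and MT-ATP8 and MT-ND2, differed by less than the larger of their SDs. At the low end were MT-ND1 with 1841 ± 30.3, MT-ND5 with 955 ± 7.43 and MT-ND6 with 51.6 ± 1.56 CPM per kilobase. MT-ND6, the light-strand gene, ranked 13th of 13 in every library.

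MT-CO2 ranked first and MT-CO3 second per kilobase in all libraries but that of SKN3. MT-ND1 ranked 11th in all 8 Cal27-derived libraries, 7th in BICR78 and 4th in SKN3. In the plot of levels by gene the libraries were spread most widely for MT-CO3, from 2227 to 16764 CPM, and MT-ND1, from 1307 to 8524 CPM.

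**Figure D1:**
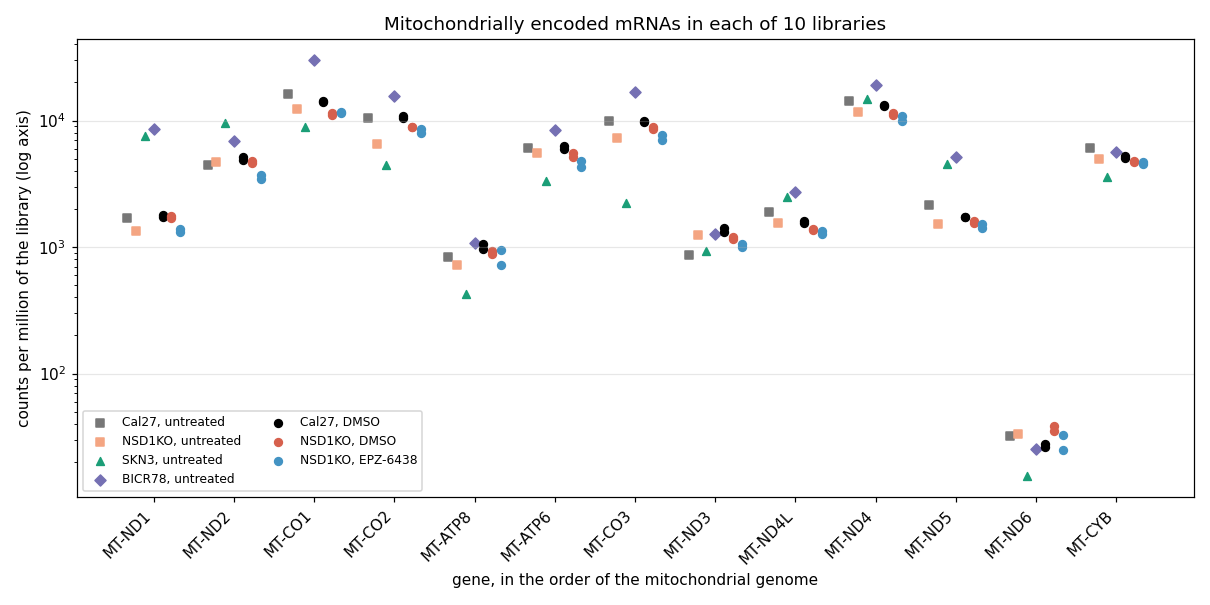
Level of each of the 13 mitochondrially encoded mRNAs (CPM, counts per 1e6 of the library total, log axis) in each of the 10 libraries, with the genes in the order of the mitochondrial genome and 1 symbol per library. MT-CO1 reaches 30255 CPM in BICR78 and MT-ND6 lies between 15.41 and 38.87 CPM in every library; no error bars are drawn because each point is 1 library.

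As a share of all counts, the 13 genes made up 7.065% and 7.247% in Cal27 with DMSO, 6.274% and 6.077% in the labelled knockout given DMSO, and 5.827% and 5.442% under EPZ-6438. The groups did not overlap, and the order was parental, then labelled knockout, then labelled knockout with the inhibitor. The group means were 7.16% ± 0.13, 6.17% ± 0.14 and 5.63% ± 0.27 (SD, n = 2 each). The labelled knockout lay 0.98 percentage points below Cal27 (difference -0.98), the inhibitor group a further -0.54 points from the labelled knockout. A two-sided exact permutation test gave p = 0.33 for each comparison, the smallest value that 2 libraries against 2 can reach. In bulk RNA, fewer mitochondria-rich cells and less mitochondrial RNA per cell cannot be told apart.

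Among the untreated libraries the share was 7.475% in Cal27 (95% Wilson interval 7.464 to 7.486) and 5.938% in the labelled knockout (5.928 to 5.948). SKN3 had 6.285% (6.274 to 6.297) and BICR78 12.14% (12.12 to 12.15). The labelled knockout was thus below its parental line in both sets of libraries, and BICR78 was above all the other libraries. These intervals, and all others on single libraries, cover counting error only.

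**Figure D2:**
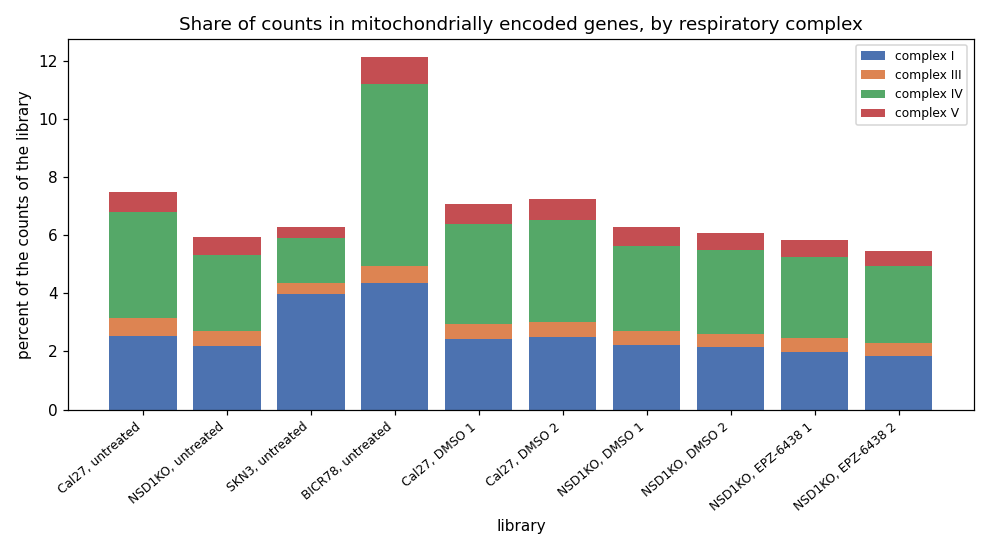
Percent of each library's counts in the 13 genes, stacked by respiratory complex (complex I, 7 genes; complex III, 1 gene; complex IV, 3 genes; complex V, 2 genes), 1 bar per library on an axis from 0. The total goes from 7.065% and 7.247% in Cal27 with DMSO to 5.827% and 5.442% in the labelled knockout with EPZ-6438; BICR78 has the tallest bar at 12.14% and SKN3 the largest complex I portion relative to its bar.

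The labelled knockout was compared with Cal27, both with DMSO. Of the 13 genes, 12 fell and 1, MT-ND6, rose at an adjusted p below 0.05. Over all 13241 tested genes, 19.5% were called lower and 16.4% higher, 35.9% in all, in the same comparison. With library size as the only scaling the split over all genes turned from 2169 higher and 2580 lower to 2978 and 2088. The median log2 change of the 13 genes was -0.23, against -0.01 over all tested genes. No label says that replicates came from separate cultures, so the p-values here cover the spread among these libraries alone, and that spread may be a technical one. All adjusted p-values in this and the following comparisons come from edgeR's quasi-likelihood test with Benjamini-Hochberg adjustment over all tested genes.

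The complex IV genes had the lowest median, -0.31. MT-CO1 was at 14016 and 14191 CPM in Cal27 and at 11385 and 11160 CPM in the labelled knockout. The groups were well apart, and the log2 change was -0.37 ± 0.02 (SE, adjusted p = 2.59e-10), the lowest of the 13 genes. MT-CO2 was at 10512 and 10807 CPM in Cal27 and at 8955 and 8822 in the labelled knockout, again without overlap (log2 change -0.31 ± 0.03, adjusted p = 1.83e-07). MT-CO3, a structural core subunit, went from 9820 and 10002 CPM to 8836 and 8638 (log2 change -0.23 ± 0.03, adjusted p = 5.9e-06).

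Both complex V genes fell. MT-ATP6 was at 5997 and 6260 CPM in Cal27 and at 5581 and 5151 in the labelled knockout, with no overlap (log2 change -0.24 ± 0.04, adjusted p = 0.000232). Under a robust estimate of the spread its adjusted p was 0.125. MT-ATP8, the small membrane subunit beside it, was at 972.8 and 1054 CPM in Cal27 and at 922.4 and 878.8 in the labelled knockout (log2 change -0.22 ± 0.07, adjusted p = 0.0249). This call did not hold under DESeq2 (adjusted p = 0.389), under a robust spread estimate (0.383) or with library size as the only scaling (0.0728). It was also lost without Cal27 replicate 2 (0.198) and without either labelled knockout library (0.0651 and 0.184). MT-CYB, the only complex III subunit made in mitochondria, was at 5052 and 5199 CPM in Cal27 and at 4766 and 4674 in the labelled knockout (log2 change -0.17 ± 0.02, adjusted p = 3.37e-05), a smaller change with no overlap.

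Of the 7 complex I genes, 6 fell. MT-ND4 was at 12997 and 13276 CPM in Cal27 and at 11518 and 11012 in the labelled knockout (log2 change -0.27 ± 0.03, adjusted p = 1.66e-06). MT-ND4L, from the same mRNA, changed by a similar -0.25 ± 0.03, from 1556 and 1615 CPM to 1394 and 1371 (adjusted p = 3.85e-06). MT-ND3, a small membrane subunit, went from 1310 and 1406 CPM to 1204 and 1163 (log2 change -0.25 ± 0.03, adjusted p = 1.25e-05). MT-ND5 and MT-ND2 changed less. MT-ND5, whose subunit forms the far end of the membrane arm, went from 1740 and 1721 CPM to 1610 and 1561 (log2 change -0.18 ± 0.03, adjusted p = 0.000133). MT-ND2 was at 4909 and 5133 CPM in Cal27 and at 4780 and 4606 in the labelled knockout (log2 change -0.15 ± 0.03, adjusted p = 0.000912).

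MT-ND1, the subunit next to the ubiquinone channel, had the smallest change of the 13. It was at 1740 and 1781 CPM in Cal27 and at 1750 and 1695 CPM in the labelled knockout, so that the groups overlapped in unscaled CPM (log2 change -0.08 ± 0.03 after scaling, adjusted p = 0.0289). The call was lost with library size as the only scaling (log2 change -0.03, adjusted p = 0.4), without Cal27 replicate 2 (adjusted p = 0.199) and without labelled knockout replicate 2 (adjusted p = 0.272).

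MT-ND6 moved the other way. It was at 26.49 and 27.66 CPM in Cal27 and at 34.94 and 38.87 CPM in the labelled knockout with DMSO. The labelled knockout libraries were both higher, with a log2 change of 0.40 ± 0.10 (SE, adjusted p = 0.00639). The call was lost without Cal27 replicate 1 (adjusted p = 0.0517) and without labelled knockout replicate 2 (adjusted p = 0.0908). MT-ND6 is the least abundant of the 13, and its count rests on the unknown strand setting.

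The untreated pair, with 1 library per line and so no test, was then compared in the same way. MT-CO2 was at 10412 CPM in Cal27 and 6536 in the labelled knockout, a log2 difference of -0.77. This and MT-ND5, at 2151 and 1529 CPM (log2 difference -0.59), were the 2 of 13 genes more than 1.5-fold lower in the labelled knockout, against 17.1% of all 15460 genes, and none was more than 1.5-fold higher, against 13% of all. With library size as the only scaling 1 gene, MT-CO2, was past 1.5-fold lower. MT-CO3 (-0.53), MT-CO1 (-0.48), MT-ND1 (-0.43), MT-ND4L (-0.41), MT-CYB (-0.40), MT-ND4 (-0.40), MT-ATP8 (-0.33) and MT-ATP6 (-0.24) were also lower, by log2 differences within that limit. For these 10 genes the sign was that of the DMSO libraries.

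MT-ND3, MT-ND6 and MT-ND2 stood apart from these. MT-ND3 was higher in the untreated labelled knockout, at 1254 CPM (95% Poisson interval 1239 to 1269) against 872.9 CPM (860.5 to 885.4) in untreated Cal27, a log2 difference of 0.42. With DMSO its differences between single libraries ran from -0.32 to -0.16. MT-ND6 was at 33.02 CPM (30.62 to 35.56) in the labelled knockout and 32.02 CPM (29.68 to 34.49) in Cal27, intervals that overlap widely, and its scaled log2 difference was -0.06. MT-ND2 was at 4718 and 4464 CPM, with a log2 difference of -0.02 that became 0.08 with library size as the only scaling. When the untreated pair was added to the fit with the set of libraries as a term, MT-ND3 had a log2 change of -0.02 (adjusted p = 0.923) and MT-ND6 of 0.24 (adjusted p = 0.244). Neither MT-ND2 (adjusted p = 0.15), MT-ND1 (0.103) nor MT-ATP8 (0.099) was called in that fit.

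EPZ-6438 was compared with DMSO, both in the labelled knockout. Of the 13 genes, 10 fell, none rose and 3 were not called. Over all tested genes, 23.9% were called lower and 25.6% higher, 49.6% in all. The median log2 change of the 13 was -0.12, against 0.00 over all tested genes. This median rested on the individual treated libraries: it was -0.24 without EPZ-6438 replicate 1 and -0.07 without replicate 2. All 13 genes had more CPM in EPZ-6438 replicate 1 than in replicate 2, by 1.292 times for MT-ATP8, 1.324 times for MT-ND6 and 1.031 to 1.122 times for the others. The comparison also shares the labelled knockout DMSO libraries with the preceding one, so that the 2 sets of values are not independent.

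All 7 complex I genes fell, with a median of -0.20. MT-ND2 was at 4780 and 4606 CPM with DMSO and at 3722 and 3482 CPM with EPZ-6438. The groups were far apart, and the log2 change was -0.38 ± 0.03 (SE, adjusted p = 1.76e-08). MT-ND1 behaved alike, at 1750 and 1695 CPM with DMSO and 1382 and 1307 CPM with EPZ-6438 (log2 change -0.36 ± 0.03, adjusted p = 1.61e-08). MT-ND3 went from 1204 and 1163 CPM to 1052 and 1006 (log2 change -0.20 ± 0.03, adjusted p = 7.6e-05).

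The changes of the remaining complex I genes were smaller. MT-ND4 was at 11518 and 11012 CPM with DMSO and at 10767 and 9974 with EPZ-6438 (log2 change -0.12 ± 0.03, adjusted p = 0.00281). It was not called without labelled knockout DMSO replicate 1 (adjusted p = 0.0616). MT-ND5 was at 1610 and 1561 CPM and then at 1522 and 1421 (log2 change -0.11 ± 0.03, adjusted p = 0.00514), and MT-ND4L at 1394 and 1371 CPM and then at 1336 and 1257 (log2 change -0.09 ± 0.03, adjusted p = 0.013). Neither MT-ND5 nor MT-ND4L was called without EPZ-6438 replicate 2 (log2 changes -0.06 and -0.05, adjusted p = 0.0687 and 0.157) or without labelled knockout DMSO replicate 1 (0.075 and 0.0973), and MT-ND4L was not called by DESeq2 (0.0797). MT-ND6 was at 34.94 and 38.87 CPM with DMSO and at 32.69 and 24.7 with EPZ-6438. Its log2 change was -0.38 ± 0.10 (adjusted p = 0.00547), but it was -0.18 (adjusted p = 0.162) without EPZ-6438 replicate 2 and -0.31 (adjusted p = 0.0775) without labelled knockout DMSO replicate 2.

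Of the complex IV genes 2 fell and 1 did not pass the test. MT-CO3 was at 8836 and 8638 CPM with DMSO and at 7634 and 7061 CPM with EPZ-6438, clearly apart (log2 change -0.25 ± 0.03, adjusted p = 1.49e-06). MT-CO2 changed less, from 8955 and 8822 CPM to 8547 and 7914 (log2 change -0.11 ± 0.03, adjusted p = 0.0034). MT-CO1 was at 11385 and 11160 CPM with DMSO and at 11784 and 11427 CPM with EPZ-6438. Both treated libraries were slightly above both DMSO libraries, with a log2 change of 0.04 ± 0.02 (adjusted p = 0.112). It was called higher without EPZ-6438 replicate 2 (log2 change 0.06, adjusted p = 0.0109) and among genes of at least 10 CPM in 2 libraries (0.08, adjusted p = 0.00575).

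In complex V, MT-ATP6 was at 5581 and 5151 CPM with DMSO and at 4825 and 4302 with EPZ-6438 (log2 change -0.24 ± 0.04, adjusted p = 0.000205), with an adjusted p of 0.111 under the robust spread estimate. MT-ATP8 was at 922.4 and 878.8 CPM with DMSO and at 940.5 and 727.7 CPM with EPZ-6438, so that the treated libraries lay on either side of the DMSO ones (log2 change -0.12 ± 0.07, adjusted p = 0.205). Without EPZ-6438 replicate 1 it was called lower (log2 change -0.31, adjusted p = 4.11e-05), and with no low-count filter at -0.12 as well (adjusted p = 4.88e-05). The ratio of MT-ATP8 to MT-ATP6 counts was 0.1949 in EPZ-6438 replicate 1 and 0.1622 to 0.1706 in the other 5 libraries of the replicated groups. MT-CYB was at 4766 and 4674 CPM with DMSO and at 4725 and 4522 with EPZ-6438. These overlapped, and the log2 change was -0.03 ± 0.02 (adjusted p = 0.308), with a call at -0.07 (adjusted p = 0.0252) without EPZ-6438 replicate 1.

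The labelled knockout with EPZ-6438 was last set against Cal27 with DMSO, a comparison that shares its libraries with the other 2. Of the 13 genes, 12 fell, and none rose. Over all tested genes, 25.9% were called lower and 26.1% higher, 52% in all, or 3456 higher and 3428 lower, against 4016 and 2815 with library size as the only scaling. The median log2 change was -0.39, against 0.00 over all tested genes, and the 12 genes were called whichever single library was left out.

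MT-ND2 had the lowest value, with 4909 and 5133 CPM in Cal27 and 3722 and 3482 CPM in the treated labelled knockout (log2 change -0.53 ± 0.03, adjusted p = 2e-10). MT-CO3 (-0.48 ± 0.03), MT-ATP6 (-0.48 ± 0.04), MT-ND3 (-0.45 ± 0.03), MT-ND1 (-0.44 ± 0.03) and MT-CO2 (-0.43 ± 0.03) followed. The remaining 6 called genes lay between -0.39 for MT-ND4 and -0.20 for MT-CYB, among them MT-ATP8 at -0.34 ± 0.07, which was not called by DESeq2 (adjusted p = 0.0966) or with a robust spread estimate (0.175). MT-ND6 was at 26.49 and 27.66 CPM in Cal27 and at 32.69 and 24.7 in the treated labelled knockout. The latter lay on both sides of the former (log2 change 0.01 ± 0.11, adjusted p = 0.931).

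The steps at which the genes moved were unequal, as the plot of the 3 comparisons shows. MT-CO1 changed by -0.37 between the DMSO groups and by 0.04 with EPZ-6438. MT-ND1 and MT-ND2 changed by -0.08 and -0.15 between the DMSO groups and by -0.36 and -0.38 with EPZ-6438. MT-ATP6, MT-CO3 and MT-ND3 changed by about the same amount at each step. The difference between the steps was not tested, since both contain the same DMSO libraries of the labelled knockout.

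**Figure D3:**
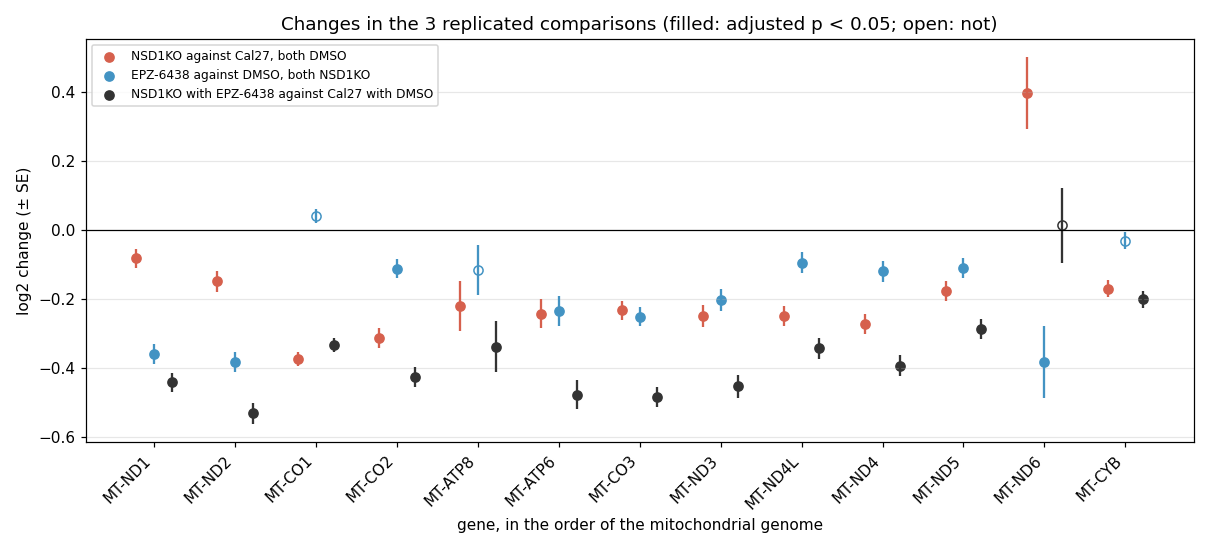
Log2 change (points) and SE (bars) of each of the 13 genes in the 3 replicated comparisons, 2 libraries per group, with filled points for an adjusted p below 0.05 and open points otherwise. Points lie below 0 except MT-ND6 in the labelled knockout at 0.40, MT-CO1 with EPZ-6438 at 0.04 and MT-ND6 in the treated labelled knockout against Cal27 at 0.01; the comparisons share libraries.

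All of the 13 genes but MT-ND6, the light-strand gene, are cut from the precursor of the same strand. The make-up of the 13 was therefore also described as a percent of the counts in all 13. Complex IV held 48.62% and 48.29% of these counts in Cal27 with DMSO, 46.51% and 47.1% in the labelled knockout given DMSO, and 47.99% and 48.51% under EPZ-6438. Complex I held 34.36% and 34.44%, then 35.53% and 35.29%, then 34% and 33.94%. The labelled knockout DMSO libraries thus stood apart from both other groups, with more of complex I and less of complex IV, by about 1 to 2 percentage points.

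MT-CO1 accounted for 19.7% ± 0.18 of the mitochondrial counts in Cal27, 18.3% ± 0.15 in the labelled knockout with DMSO and 20.6% ± 0.55 with EPZ-6438 (SD, n = 2 each). MT-ND2 held 7.02% ± 0.09, 7.6% ± 0.03 and 6.39% ± 0.01 in the same groups. MT-CYB held 7.16% ± 0.02, then 7.64% ± 0.07, then 8.21% ± 0.14, a higher share at each step beside a level in CPM that was lower or not called. MT-CO2 (14.9%, 14.4% and 14.6%) and MT-ND4 (18.4%, 18.2% and 18.4%) hardly moved in share.

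Ratios between genes varied to different degrees in these 6 libraries. MT-ND2 had 2.664 to 2.883 times the counts of MT-ND1, and MT-ND4L had 0.1197 to 0.126 times those of MT-ND4. MT-ND2 had 0.3047 to 0.4199 times the counts of MT-CO1, and MT-ND6 had 0.01522 to 0.0249 times those of MT-ND5. The MT-ND2 to MT-ND1 ratio was 2.646 in untreated Cal27 and 3.526 in the untreated labelled knockout, and the MT-CO2 to MT-CO1 ratio was 0.6481 and 0.531, against 0.6925 to 0.7906 in the 6 libraries with DMSO or EPZ-6438.

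SKN3 and BICR78 were compared with untreated Cal27 and with the range of all 8 Cal27-derived libraries. Each line is 1 library, so there is no replicate check and no p-value. SKN3 was above the Cal27 range in CPM for 5 of the 13 genes (MT-ND1, MT-ND2, MT-ND4L, MT-ND4 and MT-ND5), against 38.9% of all genes, and below it for 7 (the 3 MT-CO genes, both MT-ATP genes, MT-CYB and MT-ND6), against 30.2%. The count above the range is thus near the share of all genes, and its 5 genes all code for complex I. The range is one of unscaled CPM. After scaling, MT-ND4 in SKN3 had a log2 difference of -0.08 from untreated Cal27, so its place above the range depends on scaling. BICR78 was above the range for 10 genes, against 32.9% of all, and below it for none, against 28.4%. MT-ATP8 was among these 10 by a narrow margin, at 1068 CPM against a highest Cal27-derived value of 1054. The counts of genes outside the range were not repeated with scaling.

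MT-ND1 was at 7510 CPM in SKN3 (95% Poisson interval 7469 to 7550) and at 8524 CPM in BICR78 (8484 to 8566), while the 8 Cal27-derived libraries had 1307 to 1781 with a median of 1691. Its log2 differences from untreated Cal27 were 2.02 and 2.29, the highest of the 13 genes in both lines. MT-ND5 was at 4506 CPM in SKN3 and 5128 in BICR78, against 1421 to 2151 in the Cal27-derived libraries. MT-ND2 was at 9644 CPM in SKN3 and 6889 in BICR78, against 3482 to 5133, so that MT-ND2 had 1.284 and 0.8082 times the counts of MT-ND1. These 3 genes were more than 1.5-fold above untreated Cal27 in SKN3, a count below the 31.4% of all genes past that limit.

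The complex IV genes separated the lines. MT-CO3 was at 2227 CPM in SKN3 (2205 to 2249) and 16764 CPM in BICR78 (16706 to 16821), on either side of the 7061 to 10002 in the Cal27-derived libraries. Its log2 difference from untreated Cal27 was -2.27 in SKN3, the lowest of the 13, and 0.72 in BICR78. MT-CO1 was at 8955 CPM in SKN3 and 30255 in BICR78, against 11160 to 16064. MT-CO2 was at 4464 and 15674 CPM, against 6536 to 10807. In SKN3, 7 of the 13 genes were more than 1.5-fold below untreated Cal27, against 29.1% of all genes. In BICR78, 4 genes (MT-ND1, MT-ND5, MT-CO1 and MT-CO3) were more than 1.5-fold above it, a count near the 27.2% of all genes. None was below it by that much, against 21.1%. With library size as the only scaling MT-ND2 (0.63) and MT-CO2 (0.59) also passed that limit in BICR78, giving 6 genes.

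The genes of complexes V and III had the same order of the lines as complex IV for MT-ATP6 and MT-ATP8. MT-ATP6 was at 3313 CPM in SKN3 and 8378 in BICR78, and MT-ATP8 at 425.9 and 1068 CPM. MT-CYB was at 3588 CPM in SKN3, below the 4522 to 6099 of the Cal27-derived libraries, and at 5669 CPM in BICR78, within them. MT-ND4 was at 14771 and 19006 CPM, in unscaled CPM above the 9974 to 14281 of the Cal27-derived libraries. For SKN3 this did not hold against untreated Cal27 after scaling (log2 difference -0.08). MT-ND4L was at 2507 and 2743 CPM, above their 1257 to 1903. MT-ND3, at 927.8 and 1269 CPM, lay within their range in both lines, and MT-ND6 was at 15.41 CPM in SKN3, below it, and at 25.13 in BICR78, within it.

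Expressed as make-up, complex I held 63.45% of the mitochondrial counts in SKN3, 35.9% in BICR78 and 33.94% to 37.1% in the Cal27-derived libraries. Complex IV held 24.89%, 51.64% and 44.03% to 48.62%, complex V 5.948%, 7.782% and 9.241% to 10.53%, and complex III 5.709%, 4.67% and 7.151% to 8.345%. BICR78 therefore had a mitochondrial share of 12.14%, against 7.475% in untreated Cal27, and a split within the Cal27 range for complex I, above it for complex IV and below it for complexes V and III. SKN3 had a mitochondrial share within the Cal27 range and a split above it for complex I and below it for the other 3 complexes. MT-ND1 made up 7.022% of mitochondrial counts in BICR78, against 2.253% to 2.79% in the Cal27-derived libraries and 11.95% in SKN3.

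**Figure D4:**
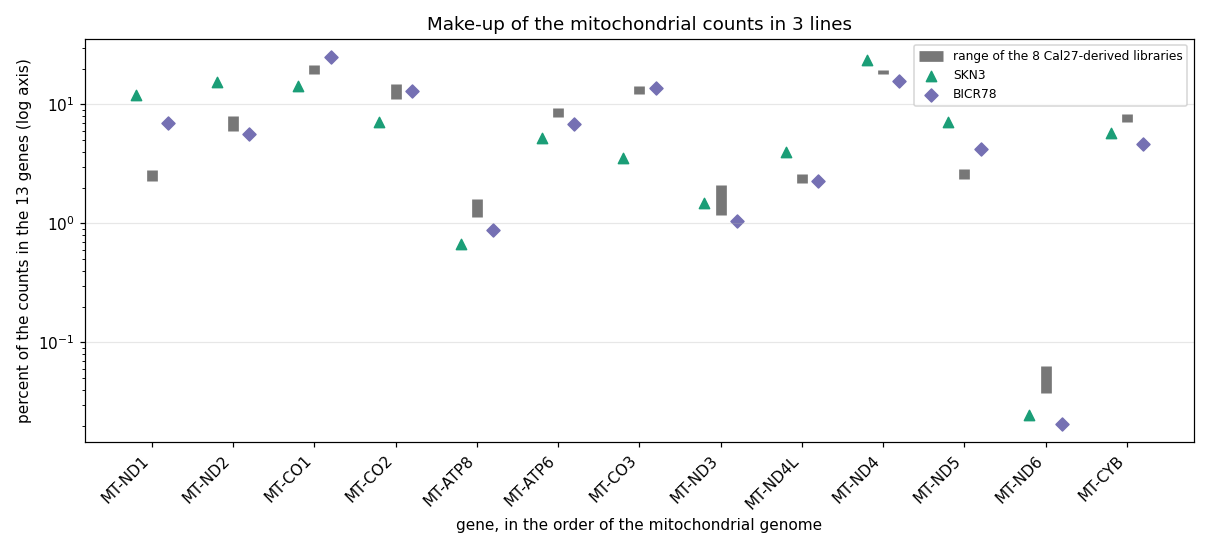
Each gene's percent of the counts in all 13 mitochondrial genes (log axis), with the range over the 8 Cal27-derived libraries as a grey bar and SKN3 and BICR78 as 1 symbol each (1 library per line, no error). SKN3 lies above the range for MT-ND1 at 11.95% and below it for MT-CO3 at 3.543%; BICR78 lies above it for MT-ND1 at 7.022% and within it for MT-CO3 at 13.81%.

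The nuclear genome carries old copies of mitochondrial DNA, whose rows can take or lend reads. The table holds 407 rows named as such copies, of which 322 were at 0 in all libraries. The 13 rows of the MTRNR2L family, which resemble the mitochondrial 16S ribosomal RNA, summed to 17431 CPM in SKN3, 7232 in BICR78 and 1196 to 1688 in the Cal27-derived libraries. With MTRNR2L12 and MTRNR2L8, MTATP6P1, a near-identical nuclear copy of a mitochondrial segment, was among the 3 with most counts. It stood at 11.39% to 13.04% of the counts of MT-ATP6 in every library. MTND2P28 stood at 0.9903% to 1.526% of MT-ND2. MTATP6P1 fell in both steps, as MT-ATP6 did (log2 change -0.33 ± 0.05, adjusted p = 2.58e-05 for the labelled knockout, and -0.18 ± 0.05, adjusted p = 0.00355, for EPZ-6438). MTND2P28 was not called in the labelled knockout, where MT-ND2 fell (log2 change of the copy 0.12 ± 0.06, adjusted p = 0.124, same test). With EPZ-6438 it fell, as MT-ND2 did (-0.24 ± 0.06, adjusted p = 0.00227). Adding the counts of these 2 copies to MT-ATP6 and MT-ND2 left the median of the 13 genes at -0.23 and -0.12 in the 2 comparisons. Before the addition these medians were the values of MT-CO3 and MT-ND4. An unchanged median therefore says nothing about MT-ATP6 and MT-ND2 themselves. Reads cannot be assigned between near-identical rows from the counts alone, so the levels of MT-ATP6 and MT-ND2 are uncertain to that extent.

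The nuclear genes of the same complexes were read for the replicated comparisons from lists chosen with earlier results of these data known, so their counts are descriptions. In the labelled knockout with DMSO, 66 of 79 tested nuclear subunits of complexes I to V fell and none rose, beside the 19.5% of all tested genes called lower. By complex, 29 of 37 fell in complex I (median log2 change -0.25), 4 of 4 in complex II (-0.30), 9 of 9 in complex III (-0.27), 10 of 13 in complex IV (-0.38) and 14 of 16 in complex V (-0.26). With EPZ-6438, 34 of the 79 fell and 8 rose, beside 23.9% and 25.6% of all tested genes. In nuclear complex I, 16 fell and 4 rose with EPZ-6438, and DESeq2 called 10 and 1.

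Complex IV had the lowest median for nuclear genes, as it did for mitochondrial genes, in the labelled knockout. COX5B, a nuclear subunit that caps the catalytic core, was at 159.8 and 162.8 CPM in Cal27 with DMSO, 110.2 and 103.9 in the labelled knockout given DMSO, and 131.3 and 126.6 under EPZ-6438. Its log2 changes were -0.64 ± 0.04 (adjusted p = 3.16e-09) and 0.27 ± 0.04 (adjusted p = 9.08e-05). NDUFA4, now assigned to complex IV, changed by -0.52 ± 0.04 (adjusted p = 5.83e-09) and 0.18 ± 0.04 (adjusted p = 0.000684). With EPZ-6438, 4 of the 13 nuclear complex IV genes rose and 1 fell (2 rose by DESeq2). These are 30.8% higher and 7.69% lower, beside 25.6% and 23.9% of all tested genes. The count of genes that rose is thus near the level of all genes. COX4I1 fell between the DMSO groups (-0.38 ± 0.03, adjusted p = 1.75e-07) and had -0.07 ± 0.03 (adjusted p = 0.0958) with EPZ-6438.

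In the other complexes, SDHA, the flavoprotein of complex II, fell at both steps, by log2 changes of -0.49 ± 0.04 (adjusted p = 2.94e-08) and -0.24 ± 0.04 (adjusted p = 0.00012). ATP5F1B, the catalytic beta subunit of ATP synthase, was at 1195 and 1180 CPM in Cal27, 971.7 and 967.4 in the labelled knockout and 769.5 and 817.4 with EPZ-6438, and fell at both steps (-0.34 ± 0.03 and -0.29 ± 0.03, adjusted p = 2.82e-08 and 1.69e-07). ATP5F1A fell by less at the first step, -0.13 ± 0.03, and more at the second, -0.38 ± 0.03 (adjusted p = 0.00353 and 5.81e-08). ATP5PD fell at the first (-0.44 ± 0.04, adjusted p = 2.82e-07) and had 0.08 ± 0.04 (adjusted p = 0.146) at the second. The complex III gene UQCRB likewise had -0.38 ± 0.04 (adjusted p = 1.92e-06) and 0.05 ± 0.04 (adjusted p = 0.316), while UQCRC1 fell at both (-0.22 ± 0.05 and -0.35 ± 0.05, adjusted p = 0.00108 and 1.45e-05). Among complex I genes, NDUFS6 fell at both (-0.43 ± 0.05 and -0.23 ± 0.05, adjusted p = 1.19e-06 and 0.000846), as did NDUFB9 (-0.38 ± 0.04 and -0.17 ± 0.04, adjusted p = 1.03e-06 and 0.00244).

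The genes that copy, process and stabilise mitochondrial RNA came next. Of 10 tested transcription genes, 2 fell between the DMSO groups and 6 with EPZ-6438 (3 by DESeq2), and none rose in either. These are 20% and 60% of the list, beside 19.5% and 23.9% of all tested genes called lower, so that the first count is at the level of all genes. POLRMT, the mitochondrial RNA polymerase, was at 52.78 and 50.33 CPM in Cal27, 44.52 and 42.88 in the labelled knockout, and 33.46 in both libraries with EPZ-6438. The 3 groups did not overlap, and the log2 changes were -0.29 ± 0.06 (adjusted p = 0.00131) and -0.39 ± 0.07 (adjusted p = 0.000127). TFAM, which packages mitochondrial DNA and bends its promoters, was at 93.59 and 100.6 CPM, then 103.7 and 107.1, then 106.5 and 103.7, with log2 changes of 0.07 ± 0.05 (adjusted p = 0.297) and -0.01 ± 0.05 (adjusted p = 0.912). TFB2M (-0.12 and -0.10) and the elongation factor TEFM (-0.18 and -0.24) were not called at either step.

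Of 29 tested genes of mitochondrial RNA processing and decay, 9 fell and 1 rose between the DMSO groups (5 and 0 by DESeq2), and 17 fell and 3 rose with EPZ-6438 (15 and 1 by DESeq2). The shares that fell were 31% and 58.6%, beside 19.5% and 23.9% of all tested genes. LRPPRC, which binds and stabilises mitochondrial mRNAs, was at 331.1 and 332.6 CPM in Cal27, 314.6 and 297.8 in the labelled knockout and 221.9 and 225.4 with EPZ-6438. The treated libraries were the lowest of the 6, and the log2 changes were -0.17 ± 0.03 (adjusted p = 0.000558) and -0.45 ± 0.03 (adjusted p = 7.48e-09). SLIRP, its partner, was at 94.44 and 96.76, then 84.52 and 86.11, then 68.96 and 68.6 CPM, and also fell at both steps (-0.22 ± 0.05 and -0.31 ± 0.05, adjusted p = 0.00129 and 4.2e-05). PNPT1, the polynucleotide phosphorylase of mitochondrial RNA decay, moved both ways. It was at 99.71 and 101.6 CPM in Cal27, 80.47 and 80.66 in the labelled knockout and 114.5 and 115.4 with EPZ-6438 (log2 changes -0.37 ± 0.04, adjusted p = 4.87e-06, and 0.51 ± 0.04, adjusted p = 5.03e-08). The helicase SUPV3L1, which works with PNPT1, was not called at the first step (-0.12 ± 0.07, adjusted p = 0.19) and fell at the second (-0.26 ± 0.07, adjusted p = 0.00629). GRSF1 was not called at either step (-0.09 ± 0.05, adjusted p = 0.193, and -0.13 ± 0.05, adjusted p = 0.0548). ELAC2, which cuts the 3' end of transfer RNAs out of the precursor, had -0.00 ± 0.05 (adjusted p = 0.965) and then fell by 0.44 on the log2 scale (adjusted p = 2.13e-06).

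**Figure D5:**
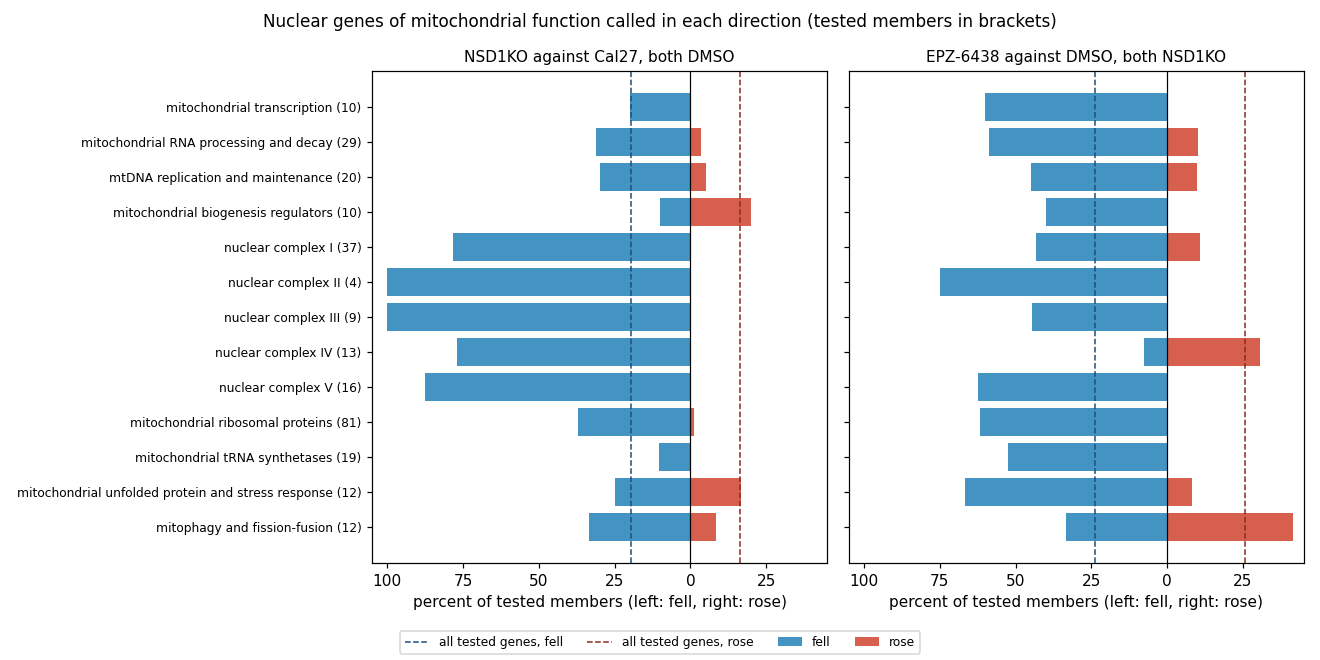
Percent of tested members of each nuclear list that fell (left) or rose (right) at an adjusted p below 0.05, in the labelled knockout against Cal27 with DMSO and in EPZ-6438 against DMSO in the labelled knockout, with the number of tested members in brackets and dashed lines at the percent of all tested genes (19.5% and 16.4%, then 23.9% and 25.6%). Bars for nuclear subunits of complexes I to V reach 76.9% to 100% fallen in the first panel, and complex IV has 7.69% fallen and 30.8% risen in the second.

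Mitochondrial mRNAs are translated by a ribosome of their own, with its own set of charged transfer RNAs. Of 81 tested mitochondrial ribosomal proteins, 30 fell and 1 rose between the DMSO groups, and 50 fell and none rose with EPZ-6438. The shares that fell were 37% and 61.7%, beside 19.5% and 23.9% of all tested genes. MRPL30 was at 88.88 and 94.12 CPM with DMSO and at 54.06 and 55.45 with EPZ-6438 (log2 change -0.74 ± 0.05, adjusted p = 3.25e-09). Of 19 transfer RNA synthetases, 2 fell at the first step, 10.5% beside 19.5% of all tested genes, and 10 at the second (6 by DESeq2), 52.6% beside 23.9%. None rose, except that 3 were called higher at the first step with library size as the only scaling. IARS2, which charges isoleucine, fell at the second step (log2 change -0.53 ± 0.04, adjusted p = 6.77e-09).

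Of 20 tested genes for the upkeep of mitochondrial DNA, 6 fell and 1 rose between the DMSO groups (3 fell by DESeq2, and 3 fell and 2 rose with library size as the only scaling), and 9 fell and 2 rose with EPZ-6438 (6 fell by DESeq2). The shares that fell were 30% and 45%, beside 19.5% and 23.9% of all tested genes, and those that rose were 5% and 10%, beside 16.4% and 25.6%. POLG, the polymerase of mitochondrial DNA, had log2 changes of 0.01 ± 0.06 (adjusted p = 0.875) and -0.27 ± 0.06 (adjusted p = 0.000902), and the helicase TWNK of 0.12 ± 0.08 (adjusted p = 0.306) and -0.24 ± 0.08 (adjusted p = 0.0237). TYMP, the thymidine phosphorylase whose loss unbalances mitochondrial nucleotides, was at 99.64 and 99.86 CPM in Cal27, 25.22 and 21.47 in the labelled knockout and 107.9 and 110.9 with EPZ-6438. Its log2 changes, -2.15 ± 0.06 and then 2.23 ± 0.06 (adjusted p = 8.13e-14 and 1.58e-14), went in opposite directions.

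Of 10 tested regulators of mitochondrial biogenesis, 2 rose and 1 fell between the DMSO groups (1 rose by DESeq2, and 4 with library size as the only scaling), and none rose and 4 fell with EPZ-6438. The shares at the first step, 20% higher and 10% lower, stand beside 16.4% and 19.5% of all tested genes, and the 40% lower at the second beside 23.9%. Over all genes, 2169 were called higher at the first step, against 1512 by DESeq2 and 2978 with library size as the only scaling. PPARGC1A, the coactivator PGC-1 alpha, was at 4.273 and 3.538 CPM in Cal27, 1.323 and 0.8007 in the labelled knockout and 1.447 and 1.547 with EPZ-6438, a low level throughout. It fell at the first step (log2 change -1.93 ± 0.33, adjusted p = 0.000175) and had 0.50 ± 0.37 (adjusted p = 0.283) at the second. PPRC1, a related coactivator, rose at the first step (0.19 ± 0.05, adjusted p = 0.0039) and fell at the second (-0.39 ± 0.05, adjusted p = 3.23e-06), as did MYC (0.11 ± 0.04 and -0.26 ± 0.04, adjusted p = 0.0248 and 1.82e-05).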

How the data were processed

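Total RNA was extracted with TRIzol and depleted of ribosomal RNA, per the labels' protocols. The submitters' processing notes list HISAT2 2.1.0, featureCounts 1.6.1, Picard 2.23.1 and CASAVA 1.7, with build hg38. For their roles, the annotation and the strand setting, the sources used here give nothing. Raw read counts per gene were deposited by the authors as whole numbers, which were taken unchanged. The 7 CUT&Tag samples were not analysed here.

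Samples were grouped by title. The 6 libraries with DMSO or EPZ-6438 were fitted in edgeR 4.0.16 (R 4.3.3) after filterByExpr, which kept 13241 genes, and TMM scaling. Group was the only term. Calls were made by the quasi-likelihood F test where the p adjusted by Benjamini-Hochberg was below 0.05. The test was checked on simulated counts first. CPM in the text is counts per 1e6 of the library total, and log2 changes are TMM scaled. The verbs rose and fell stand for called genes only. Untreated libraries, 1 each, were compared after TMM over all 10 libraries (15460 genes) on log2 CPM, prior count 2, with no test. MT- symbols were matched to a RefSeq table of GRCh38.p14 with the hyphen removed. Replicates differed by more than counting noise.

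The members, the gene lists and the tests were chosen with earlier results of these data known. Named nuclear genes come from 12 genes taken whatever their p (TFAM, TFB2M, POLRMT, TEFM, LRPPRC, SLIRP, PNPT1, SUPV3L1, GRSF1, POLG, TWNK and PPARGC1A) and up to 3 others per list with the lowest adjusted p in either main comparison. Of the remaining list genes only some are printed. Alternatives were DESeq2 1.42.0, other scalings and filters, fits of 2 groups, a replicate block, a robust estimate of the spread, each library left out, adding the untreated pair, and other denominators of the share. One marker gene of the lists is not reported here.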

Additional observations from a re-analysis of the deposited data

Results flagged for a closer look

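In MT-ND3 the labelled knockout minus Cal27 difference was 0.422 on the log2 scale in the untreated libraries (1 each), while every pair of DMSO libraries gave a difference below 0. In MT-ND6 it was -0.056 in the untreated libraries, while every pair of DMSO libraries gave a difference above 0. In MT-ND3 the sets of libraries thus differed in opposite directions. The difference between the sets was not tested for either gene. For MT-ND6 the sign in untreated libraries depends on scaling, since its unscaled level was 33.02 CPM in the labelled knockout and 32.02 CPM in Cal27. An opposite direction is therefore not shown for MT-ND6.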

How the results depend on the processing

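For the 13 genes in the replicated comparisons, 525 values under alternatives kept their call status, 29 lost a call and 5 gained one. None turned direction where either fit called the gene. Changes of sign in genes called in neither fit were counted among the 525. The genes called higher in the labelled knockout numbered 0 with the untreated pair added. In that fit MT-ND1, MT-ND2, MT-ND3 and MT-ATP8 were no longer called lower. Leaving out 1 library at a time gave 0 to 1 genes higher and 10 to 12 lower in the labelled knockout, 0 to 1 higher and 7 to 12 lower with EPZ-6438, and 0 higher and 12 lower in the treated labelled knockout against Cal27. With EPZ-6438, 1 gene was higher among genes of at least 10 CPM in 2 libraries. Share differences without 1 library ran from -1.079 to -0.883 percentage points for the labelled knockout, -0.733 to -0.349 for EPZ-6438 and -1.714 to -1.329 for the treated labelled knockout against Cal27. With the most abundant other rows out of the denominator they were -1.226 for the labelled knockout and -1.841 for the treated labelled knockout, and against other rows only -1.126 for the labelled knockout. In the untreated labelled knockout, 1 gene was past 1.5-fold lower with library size as the only scaling. The cause was not tested.

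The replicate numbers are not stated to pair the samples. Correlations of replicate deviations between groups were 0.01, -0.04 and 0.00, which cannot show whether libraries were prepared together. A fit with a replicate block changed no call among the 13 genes, with 1 higher and 12 lower in the labelled knockout. Over all genes, the labelled knockout had 2169 higher and 2580 lower, against 1512 and 1736 by DESeq2, and 1354 and 1604 with the untreated pair added. The 2 libraries per group and the low counts of MT-ND6 limit these calls.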

Other observations

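Of 12 tested genes of the mitochondrial unfolded protein and stress response, 2 rose and 3 fell in the labelled knockout against Cal27 with DMSO (5 rose with library size as the only scaling), and 1 rose and 8 fell with EPZ-6438. The first shares, 16.7% higher and 25% lower, stand near the 16.4% and 19.5% of all tested genes, and the second, 8.33% and 66.7%, beside 25.6% and 23.9%. With library size as the only scaling, 2978 of all genes were called higher at the first step, against 2169 with TMM scaling. GDF15, a secreted stress cytokine, was at 39.31 and 35.67 CPM in Cal27, 78.14 and 67.63 in the labelled knockout and 224 and 234.2 with EPZ-6438. It rose at both steps (log2 changes 0.90 ± 0.07 and 1.66 ± 0.05, adjusted p = 3.31e-08 and 1.28e-13, edgeR's quasi-likelihood test). HSPD1, the mitochondrial chaperonin HSP60, fell at both (-0.14 ± 0.03 and -0.41 ± 0.03, adjusted p = 0.000351 and 1.01e-09). TRIB3 had 0.05 ± 0.05 (adjusted p = 0.521) and then fell by 0.84 on the log2 scale (adjusted p = 4.26e-09).

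Of 12 tested genes of mitophagy and of mitochondrial fission and fusion, 1 rose and 4 fell between the DMSO groups (2 fell by DESeq2, and 2 rose with library size as the only scaling), and 5 rose and 4 fell with EPZ-6438. These are 8.33% higher and 33.3% lower beside 16.4% and 19.5% of all tested genes, and 41.7% and 33.3% beside 25.6% and 23.9%. The mitophagy receptors BNIP3 and BNIP3L rose with EPZ-6438, BNIP3 from 120.2 and 122.3 CPM to 195.8 and 189.6 (log2 change 0.67 ± 0.04, adjusted p = 2.93e-10) and BNIP3L from 94.63 and 91.06 CPM to 143.8 and 137.6 (0.60 ± 0.04, adjusted p = 7.81e-09). The autophagy adaptor SQSTM1 rose at both steps (0.22 ± 0.03 and 0.40 ± 0.02, adjusted p = 2.83e-06 and 7.35e-10). In the untreated libraries BNIP3 was at 48.12 CPM in Cal27, 65.25 in the labelled knockout, 34.4 in SKN3 and 204.6 in BICR78, the line with the largest mitochondrial share. A link between BNIP3 and that share was not tested.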
